A study of Rattus rattus with 6 samples.

Results

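Cdkn1a encodes p21, an inhibitor of the kinases that drive the cell cycle. Described here is that single gene, the row ENSRNOG00000000521, out of 23976 genes of a table from rat left ventricle. The row was found by its Ensembl identifier, but the gene was chosen with earlier results of these data known. The table pairs no identifier with a symbol. The symbol is that of Ensembl's rat gene set as background knowledge, and the RefSeq gene table used here, of another rat species, held 0 of the 23976 identifiers and so could not check it. Groups of wild type male Wistar-Kyoto rats were compared without any treatment, 3 young adults of 3 months and 3 old adults of 24 months, with 1 library of ribosomal RNA-depleted total RNA from each animal. The labels give the species as Rattus rattus, while the strain and the genome build used belong to Rattus norvegicus. Levels are TPM, an abundance per transcript length with a fixed sum per library, so read depth is unknown and no counting interval can be given. Marker genes of heart muscle could not be looked up without symbols, and the tissue label was not checked against them.

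p21 belongs to the Cip/Kip family of inhibitors. It binds complexes of cyclins with cyclin-dependent kinases and holds cells before DNA replication, and through a separate region it binds PCNA, the clamp of the DNA polymerases. The tumour suppressor p53 activates its transcription after DNA damage, and other signals, among them TGF-beta and FoxO factors, act on it without p53. In the heart it is known for its part in the withdrawal of muscle cells from the cell cycle, and it is widely used as a sign of cellular senescence in ageing tissue.

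Cdkn1a was lower in old ventricle in the deposited table. Its level was 14.5, 25.7 and 8.56 TPM in young replicates 1, 2 and 3, and 5.39, 4.03 and 2.72 TPM in the old libraries OH1, OH2 and OH5. Every young library was above every old one, with young replicate 2 far above the others and young replicate 3 the nearest to the old group, 1.59 times the level of OH1. It averaged 16.2 ± 8.68 TPM in young and 4.04 ± 1.33 TPM in old ventricle (SD, n = 3), a 4.01-fold difference of the means.

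On the log2(TPM + 1) scale Cdkn1a fell by 1.68 ± 0.29 in old ventricle (SE; 95% interval -2.26 to -1.10; limma-trend, Benjamini-Hochberg adjusted p = 2.56e-05 over 9502 tested genes). An exact permutation test (two-sided) of the 6 TPM values returned p = 0.1, below which 3 against 3 libraries cannot go. Of all tested genes, 46.8% passed the same limma threshold as lower in old, and 54.2% had old libraries all below the young ones. With all 6 libraries, passing the test or having separate groups was therefore common on this scale. The share of genes that passed as lower was 92.4% without young replicate 1, 6.40% and 8.29% without young replicates 2 and 3, and 4.95%, 6.89% and 3.78% without OH1, OH2 and OH5, and Cdkn1a passed in each of these 6 fits. The size was less common: with all libraries the median change of all tested genes was -0.53, Cdkn1a lay 1.15 log2 units below that median, and 8 genes of 9502 had a lower log2 fold change. This place depends in part on abundance, since the 1 added to TPM shrinks the changes of low genes most. With 0.1 or 10 added instead, the median change was -0.68 or -0.18, and that of Cdkn1a -1.89 or -0.85. The limma SE rests mostly on a spread fitted over all genes as a trend with their mean level. The fit had 91.8 prior against 4 residual degrees of freedom, and the spread of the Cdkn1a libraries alone gives an SE of 0.48. Without young replicate 2, OH1, OH2 or OH5 the prior degrees of freedom were infinite. In those fits the spread of Cdkn1a itself had no weight in the SE, so passing there says little about that spread.

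**Figure D1:**
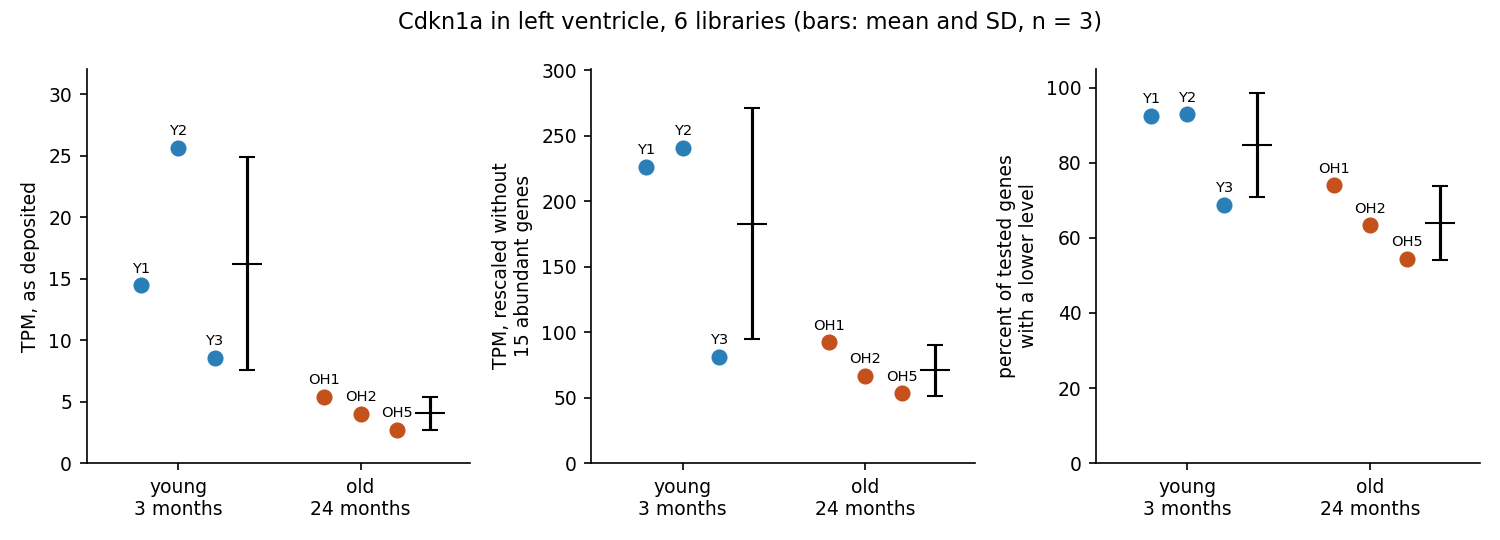
Cdkn1a in each library as deposited TPM (left), as TPM rescaled without the 15 most abundant genes (middle) and as the percentage of tested genes with a lower level in the same library (right). Points are libraries (Y1 to Y3, young replicates; OH1, OH2 and OH5, old), and black bars give the mean and SD of 3 libraries. The groups are separate on the left, and Y3 lies between OH1 and OH2 in the other panels.

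The libraries differed in how much of the total the other genes shared. The 15 genes with a mean of 1000 TPM or more left 6.39%, 10.6% and 10.5% of TPM to all others in young replicates 1, 2 and 3, and 5.84%, 6.05% and 5.08% in OH1, OH2 and OH5. Since a larger share of the 15 lowers every other value, Cdkn1a was also compared with these genes left out and each library brought to 1000000.

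After rescaling, the Cdkn1a groups overlapped. Its level was 227, 241 and 81.3 rescaled TPM in young replicates 1, 2 and 3, and 92.3, 66.6 and 53.5 in OH1, OH2 and OH5. Young replicates 1 and 2 were close to each other and far above all old libraries, while young replicate 3 was below OH1, so old was lower in 8 of 9 pairs of a young with an old library. Young libraries averaged 183 ± 88.3 and old libraries 70.8 ± 19.7 rescaled TPM (SD, n = 3), a 2.58-fold difference of the means. For these 6 values an exact permutation test (two-sided) returned p = 0.2.

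The rescaled log2 fold change of Cdkn1a was -1.24 ± 0.40 (SE; 95% interval -2.15 to -0.33) and did not pass the threshold, with a limma adjusted p of 0.108 over 9487 genes and an unadjusted p of 0.0136. On this scale 3.42% of tested genes passed as lower in old and 18.4% had old libraries all below the young ones. Cdkn1a was 1.20 log2 units below the median change of all tested genes, which was -0.04, and 33 genes of 9487 had a lower log2 fold change. The distance from the median gene was thus close to that on the deposited scale, while the SE was larger, at 4.22 prior degrees of freedom. The spread of the Cdkn1a libraries alone gives an SE of 0.55 on the rescaled scale. Without young replicate 3 the log2 fold change was -1.74 ± 0.22 and passed (limma adjusted p = 0.0233, in a range of 0.0233 to 0.389 over all alternatives), and without young replicates 1 or 2 it was -1.01 and -0.97 and did not pass.

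**Figure D2:**
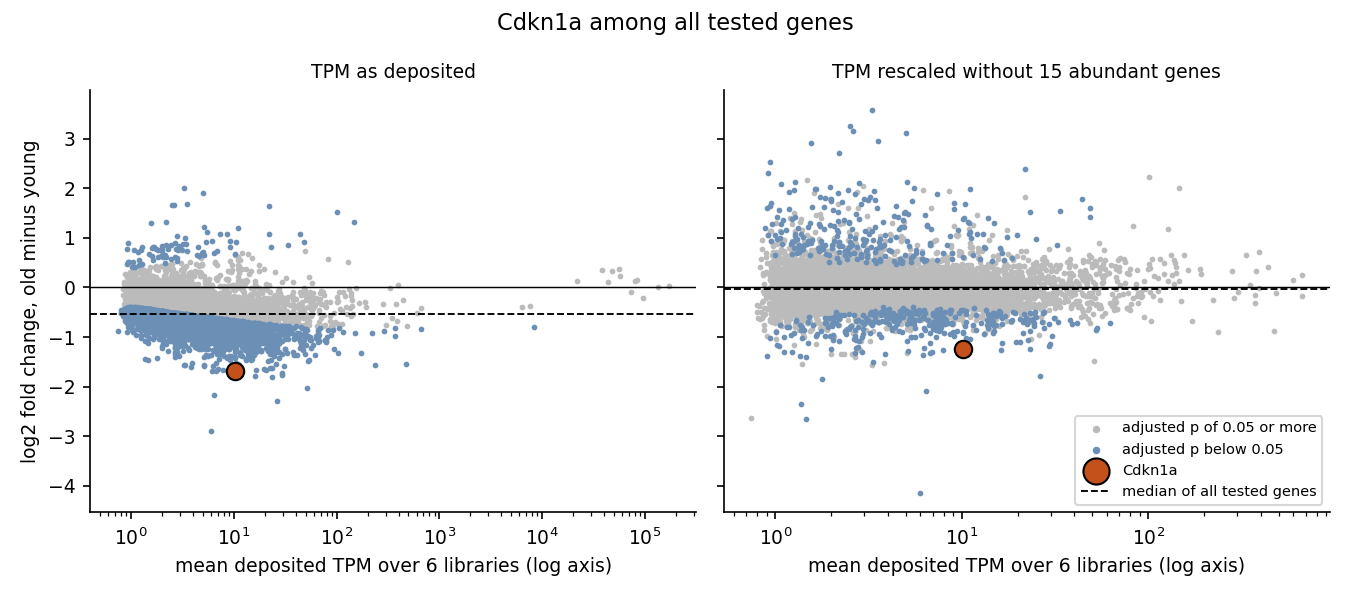
Log2 fold change, old minus young, of every tested gene against its mean deposited TPM over the 6 libraries (log axis), as deposited (left) and after rescaling (right). Blue points passed a limma adjusted p of 0.05, the dashed line is the median of all tested genes, and Cdkn1a (orange) lies near the lower edge in both panels, at -1.68 and -1.24.

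The place of Cdkn1a within a library does not change with the scaling of that library. Cdkn1a was above 92.5%, 92.9% and 68.9% of the 9487 genes in young replicates 1, 2 and 3, and above 74.1%, 63.3% and 54.4% of them in OH1, OH2 and OH5. Young replicates 1 and 2 were the 2 libraries in which the gene ranked highest, and young replicate 3 fell between OH1 and OH2. The percentile averaged 84.8 ± 13.8 over young libraries and 63.9 ± 9.85 over old ones (SD, n = 3), a difference of -20.8 percentage points with an exact two-sided permutation p = 0.2. Counted from the most abundant gene of all, Cdkn1a stood at position 726, 685 and 2970 in the young libraries and at 2476, 3494 and 4342 in the old ones. Against the median level of the tested genes in its library, it was 4.56, 5.09 and 1.63 times as high in young replicates 1, 2 and 3, and 1.89, 1.40 and 1.11 times as high in OH1, OH2 and OH5.

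Cdkn1a was among the genes that varied most between libraries of one age. The SD of its rescaled log2 values was 0.87 in young libraries, where the median tested gene had 0.18. Of all tested genes, 99.2% had a smaller one. Those young values were 7.83, 7.92 and 6.36 in young replicates 1, 2 and 3, with young replicate 3 apart from the others. In old libraries the SD of Cdkn1a was 0.39 against a median of 0.13, with 94.0% of genes smaller. The highest young library was 2.96 times the lowest after rescaling, and the highest old library 1.73 times the lowest. The difference between the SDs of the 2 ages was not tested. In bulk tissue, fewer cells that express Cdkn1a and less of its RNA per cell cannot be told apart.

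Each column name carries an ending, _1 or _2, that no label explains, and the values were also set side by side within each ending. Among the libraries ending in _1, young replicates 1 and 3 stood at 14.5 and 8.56 TPM of Cdkn1a and OH1 at 5.39 TPM. Among those ending in _2, young replicate 2 stood at 25.7 TPM, OH2 at 4.03 TPM and OH5 at 2.72 TPM. The log2(TPM + 1) difference, old minus young, was -0.93 within _1 and -2.62 within _2, and after rescaling -0.55 and -2.00. Old was lower on average within both endings on both scales, with at most 2 libraries of an age in each and no test within them. With the ending as a second term of the limma fit, Cdkn1a was at -1.78 ± 0.34 on the deposited scale (adjusted p = 8.42e-05) and at -1.27 ± 0.46 after rescaling (adjusted p = 0.201). That deposited fit had infinite prior degrees of freedom, so its SE gave no weight to the spread of Cdkn1a itself.

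**Figure D3:**
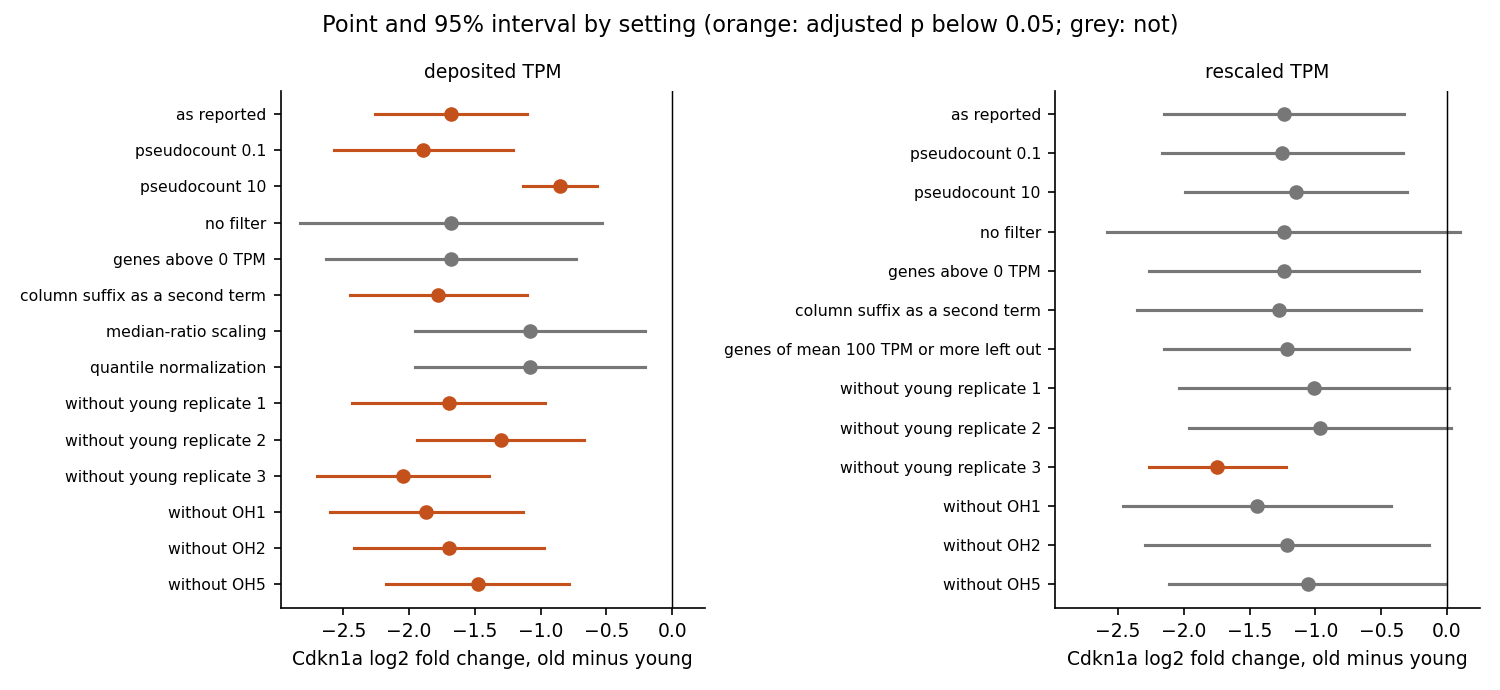
Cdkn1a log2 fold change, old minus young, with its 95% limma interval under each setting, on deposited (left) and rescaled (right) TPM. Orange settings passed a limma adjusted p of 0.05 and grey ones did not. Every point lies below 0, from -2.04 to -0.85 on the left and from -1.74 to -0.97 on the right. On the right, the intervals without a filter, without young replicate 1 and without young replicate 2 cross 0, with upper ends of 0.10, 0.02 and 0.03.

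Genes with levels like those of Cdkn1a were looked for by the Pearson correlation of log2(rescaled TPM + 1) over the 6 libraries, given as a description. Of the 9486 other tested genes, 99 (1.04%) had a correlation of at least 0.9, while 119 had one of -0.9 or less and the median was 0.05. The most alike was ENSRNOG00000043465 (r = 0.989), at 57.4, 63.5 and 41.3 rescaled TPM in young replicates 1, 2 and 3 and at 39.8, 35.0 and 32.5 in OH1, OH2 and OH5. It shared the high young replicates 1 and 2 with Cdkn1a, but its young libraries were all above the old ones. Its rescaled log2 fold change was -0.56 ± 0.17 (limma adjusted p = 0.0905), so its range was much narrower than that of Cdkn1a. The second was ENSRNOG00000022514 (r = 0.986), at 38.5, 36.9 and 31.6 rescaled TPM in the young libraries and 31.9, 29.7 and 29.2 in the old ones, with young replicate 3 just below OH1 as for Cdkn1a. On the deposited scale these genes were the 42nd and 330th most alike (r = 0.948 and 0.884), so which genes rank first depends on the scale. Of the 99 genes, 6 passed as lower in old after rescaling, where 3.42% of all tested genes passed as lower. The 99 were chosen for a pattern in which old libraries are mostly low, so nothing is read from this count. Neither identifier has a symbol in the files used here.

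**Figure D4:**
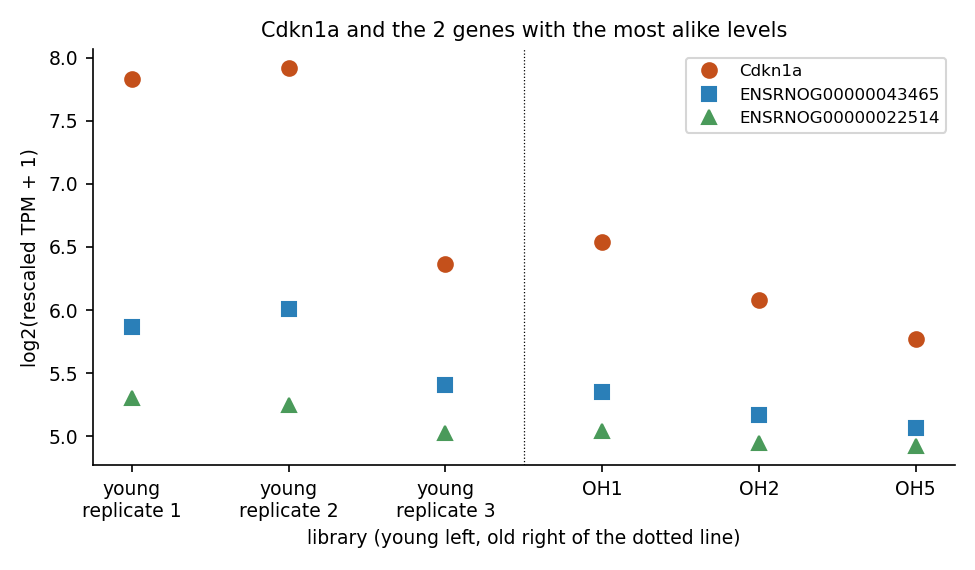
Level of Cdkn1a and of the 2 genes most alike in pattern, as log2(rescaled TPM + 1), in each of the 6 libraries, young to the left of the dotted line. All of them are highest in young replicates 1 and 2, and Cdkn1a spans the widest range.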

How the data were processed

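The authors deposited one table of TPM for 6 libraries, whose columns each sum to 1000000. Per the submitters' processing notes, Salmon and the build mRatBN7.2 were used. For Salmon no version, and for the genes no annotation release, is given in the sources used here. Young columns were matched to samples by individual number. The old columns (OH1, OH2, OH5) were assigned to the old group only, since no old individual is numbered as OH1 or OH2 are, and a shared number 5 was not taken as enough for OH5. All columns were mapped.

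Tested were all genes that reached 1 TPM in 3 or more libraries. Limma-trend (limma 3.58.1, R 4.3.3) compared log2(TPM + 1) between ages, with no other term and with Benjamini-Hochberg adjustment over all tested genes (threshold 0.05). A log2 fold change on this scale understates the change of low genes. For the second scale, the 15 genes averaging 1000 TPM or more were removed and each library brought to 1000000. The fit was tested on simulated data for the rescaled scale only, with independent noise for each gene. The deposited scale was not simulated, and nothing is read from the simulation here. Limma p-values set a change against a spread between libraries that is partly or wholly taken from a trend with mean level, fitted over all genes. Permutation p-values use only the Cdkn1a values. With 1 library from each animal, the spread between animals and that between preparations cannot be told apart.

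The gene, the lists and the tests were chosen with earlier results of these data known. Named genes were Cdkn1a, members of pathway lists (p53 targets, other CDK inhibitors, cyclins, senescence) and the 2 genes most alike in pattern. No list, cell type markers included, could be matched to identifiers, so none is described. No sequence is shown.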

Additional observations from a re-analysis of the deposited data

How the results depend on the processing

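Cdkn1a was lower in old ventricle under all 13 alternatives on the deposited scale and all 12 after rescaling. On the deposited scale (-1.68) it kept its call in 9 of 13, and the limma adjusted p ran from 3.99e-06 to 0.134. It missed the threshold without a filter (-1.68, adjusted p = 0.105), with genes above 0 TPM in at least 1 library (-1.68, 0.0562), under median-ratio scaling (-1.08, 0.134) and under quantile normalization (-1.08, 0.133). Prior degrees of freedom were 0.84, 2.67, 3.61 and 3.52 in these fits, against 91.8 in the main one. Leaving out single libraries gave -2.04 to -1.30, all past the threshold. After rescaling (-1.24) it passed in 1 of 12, without young replicate 3, and leaving out single libraries gave -1.74 to -0.97. The percentile difference of -20.8 ranged from -28.8 to -16.1 without single libraries and was -10.9 among all genes above 0 TPM.

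Of all tested genes, 4533 passed on the deposited scale, 84 higher and 4449 lower (1.85% higher). The number was 1 without a filter (6462 at an unadjusted p below 0.05), 3 with genes above 0 TPM (6968 unadjusted), 1385 with the column ending as a term, 553 with median-ratio scaling (51.2% higher), 574 with quantile normalization (46.9% higher) and 388 to 8857 without single libraries. After rescaling 576 passed (43.8% higher), against 6 without a filter (3437 unadjusted), 334 with genes above 0 TPM, 174 with the column ending (62.6% higher) and 67 to 453 without single libraries. The cause of these changes was not tested. No paired analysis was possible because the old columns carry no replicate number of the labels. The labels also state no pairing of young with old animals, so matching replicate numbers alone would not have given pairs. Depth is unknown, and so is what it limits.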
